A study of Mus musculus with 7 samples.

Results

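Potassium channel genes are described here across the cell types of the mouse cortex, the brain area and the genotype. The gene set holds every gene symbol of the count tables that starts with Kcn, apart from Kcnj10, with at least 50 unique molecular identifiers (UMIs) summed over the libraries. Of 91 such symbols, 78 passed, out of 19614 genes in all, and they carried 502275 UMIs. The 13 that fell short ended just below the limit with Kcne3 at 49 UMIs, and the lowest gene kept was Kcnk7 with 57. The 78 genes form 18 families, and 75 encode proteins. The remaining 3 are noncoding RNAs (Kcnq1ot1, Kcnmb4os2 and Kcnd3os).

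Single cells came from motor cortex (MC) and from ventromedial prefrontal cortex (PFC), both excised by hand, of B6129SF1/J mice at postnatal day 30, kept in a daily cycle of 12 h light and 12 h dark. In DTA mice (Opn4-Cre/+; Brn3b-zDTA/+) the intrinsically photosensitive retinal ganglion cells are ablated, and CTRL mice (Opn4-Cre/+; Brn3b-+/+) keep them, so both genotypes carry the Cre allele. The cells removed lie in the retina, outside the tissue sampled, and removal needs both Cre from Opn4 and the toxin allele at Brn3b, so retinal cells without Brn3b are spared. The genes of the targeted alleles were not analysed here. The 7 libraries were 1 of MC DTA, 1 of MC CTRL, 3 of PFC DTA and 2 of PFC CTRL. The labels do not say whether a library is 1 animal, so p-values measure the spread between libraries.

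Potassium channels let potassium leave the cell and so set the resting potential, end the action potential and limit the rate of firing. Voltage-gated channels (Kv) open on depolarisation, calcium- and sodium-activated channels (BK, SK, Slack) open as these ions enter, inward rectifiers (Kir) hold the resting potential or answer G proteins and ATP, and K2P channels, whose subunits hold a pair of pore domains, carry the leak current. Auxiliary subunits (Kv beta, KChIP, Kcne, Kcnmb) change the gating or the traffic of the pore, and silent Kv subunits form channels only together with another Kv pore. In the cortex, fast-spiking interneurons are known for Kv3 channels, axons for Kv1 channels and capillary pericytes for an ATP-sensitive Kir channel.

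The libraries held 1936 to 9879 cells and 6180059 to 30972905 UMIs. Cells were assigned to a class when 5 marker genes per class, none a potassium channel, pointed to that class over any other. In all, 28.9% of the 32985 cells met no gate, from 10.8% in PFC CTRL replicate 1 to 47.9% in PFC DTA replicate 3, and these had a median of 1126 UMIs, against 3539 in gated cells. Genes outside the marker lists peaked in their own class. Atp13a5 stood at 698 CPM (UMIs of the gene per 1000000 UMIs of the class in a library) in pericytes and C1qa at 5802 CPM in microglia. Snap25, a gene of neurons, stood at 3176 CPM in excitatory neurons and 2276 CPM in inhibitory neurons, and still at 253 to 619 CPM in the 7 other classes. That is 7.96% to 19.5% of its excitatory level, and a low level of a neuronal gene in a glial or vascular class is therefore not read as expression there. Between 7 and 92 cell barcodes were shared by any pair of libraries. In excitatory neurons the nuclear RNA Malat1 stood at 49895 CPM in PFC DTA replicate 3, against 19937 to 23290.1 CPM in the other libraries. The number of genotype calls is given with and without that library, and folds and intervals between the genotypes are given with it only.

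Most potassium channel genes had their highest level in neurons, and a small group had it in glia or vessel cells. Summed over the 78 genes, potassium channels made up 3823 ± 321 CPM in excitatory neurons and 4594 ± 697 CPM in inhibitory neurons (SD, n = 7 libraries). In the 7 other classes their mean sum was 531 to 2732 CPM. By mean level, 49 genes were highest in a neuron class, 33 in excitatory and 16 in inhibitory neurons, and 20 and 13 of these led the next class in all 7 libraries. Oligodendrocyte precursors led for 8 genes, astrocytes for 6, pericytes for 5, microglia for 3, endothelial cells for 3, newly formed oligodendrocytes for 2 and oligodendrocytes for 2. The highest class was not counted over all genes, so these counts have no background.

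Each class was set against the mean of the other 8 by edgeR's quasi-likelihood test with the library as a block, and a gene was called at an adjusted p under 0.05 and a fold of at least 2. In this fit 57 of the 78 genes had enough counts and 21 did not. Excitatory neurons had 46 potassium channel genes higher (background 19.1% of all genes tested) and inhibitory neurons 42 (background 17.8%). Of these, 37 were higher in both, which was not counted over all genes. The counts were 13 in oligodendrocyte precursors (background 12.7%), 8 in astrocytes (background 16.3%), 5 in pericytes (background 11.7%), 4 in microglia (background 16.7%) and 4 in oligodendrocytes (background 14.8%). They were 3 in newly formed oligodendrocytes (background 7.94%) and 1 in endothelial cells (background 17.2%). The median log2 fold change of the genes tested was 1.68 in excitatory neurons, where the median of all genes was -0.069, and 1.84 in inhibitory neurons, where it was -0.025. Of the 27 genes higher in a non-neuronal class, 22 were also higher in a neuron class, a share not computed over all genes. The other 5 were Kcnj8, Kcne4, Kcnmb1, Kcnj16 and Kcnk13. Genes too low to be tested included Kcna5, Kcnd3os, Kcne1l, Kcng1, Kcng2, Kcng4, Kcnh4, Kcnh5, Kcnh6, Kcnh8, Kcnj2, Kcnj6, Kcnj12, Kcnj14, Kcnk4, Kcnk7, Kcnn1, Kcnq1, Kcnrg and Kcnu1.

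**Figure D1:**
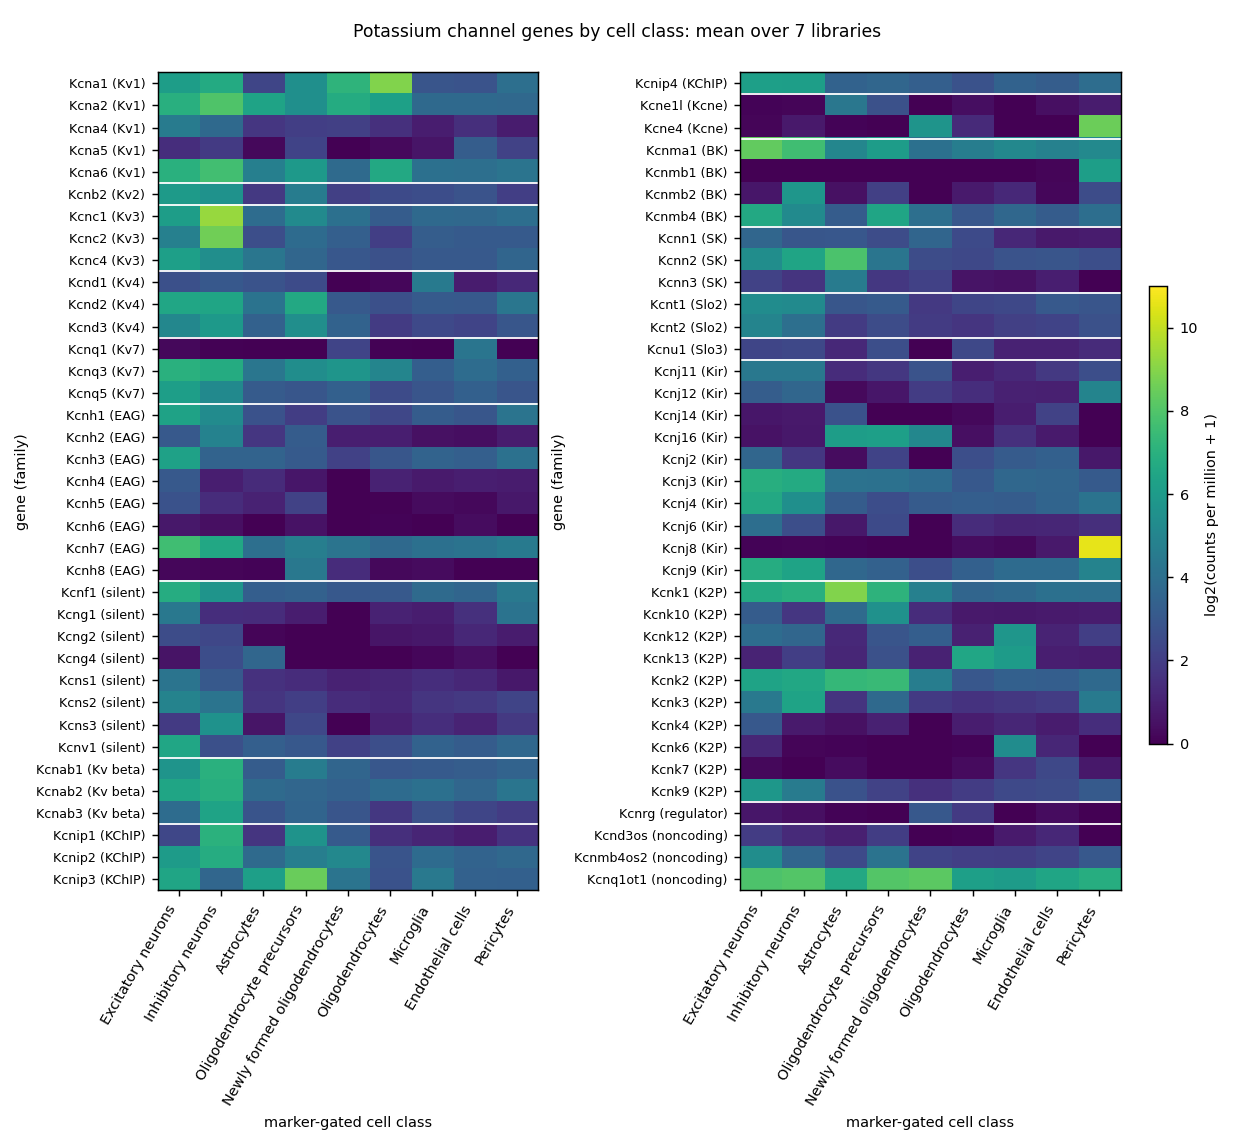
Mean level of 74 of the 78 potassium channel genes (rows, with the family) in 9 marker-gated classes (columns), as log2 of CPM plus 1, over 7 libraries. Most rows are brightest in the neuron columns on the left, and Kcnj8 is brightest in pericytes at 1560.3 CPM.

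Among voltage-gated pores, the Kv1, Kv3 and EAG families each held genes higher in excitatory neurons and genes higher in inhibitory neurons. Kcnc1, a Kv3 pore whose fast closing lets cells fire at high rates, stood at 56.1 to 87 CPM (median 66.9) in excitatory neurons, against 403 to 956 CPM (median 568) in inhibitory neurons. Kcnc2, another Kv3 pore, stood at 14.9 to 52.2 CPM (median 15.6) in excitatory neurons and 284 to 535 CPM (median 400.3) in inhibitory neurons. The ranges of these 2 genes did not overlap. Excitatory over inhibitory neurons, the log2 fold change was -3.13 ± 0.086 for Kcnc1 (SE, adjusted p = 2.3e-12, edgeR) and -4.01 ± 0.37 for Kcnc2 (SE, adjusted p = 8.75e-05, edgeR). Kcnc4 went the other way, at 72.7 ± 7.88 CPM in excitatory neurons and 42.2 ± 11.3 CPM in inhibitory neurons (SD, n = 7).

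The promoters of Kcnc1 and Kcnc2 are shown because these related pores share the inhibitory pattern. They are the 250 bases before the start of transcription in RefSeq (GRCm38.p6), 5′ to 3′, with capitals for a GC box (GGGCGG) or an E box (CACGTG) on either strand.
Kcnc1, chr7:46396218-46396467, plus strand: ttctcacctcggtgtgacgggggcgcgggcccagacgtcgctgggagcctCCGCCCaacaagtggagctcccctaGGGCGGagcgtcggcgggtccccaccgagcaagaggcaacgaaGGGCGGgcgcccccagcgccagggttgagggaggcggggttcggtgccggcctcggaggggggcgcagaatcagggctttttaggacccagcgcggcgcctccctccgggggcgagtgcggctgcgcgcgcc
Kcnc2, chr10:112270871-112271120, plus strand: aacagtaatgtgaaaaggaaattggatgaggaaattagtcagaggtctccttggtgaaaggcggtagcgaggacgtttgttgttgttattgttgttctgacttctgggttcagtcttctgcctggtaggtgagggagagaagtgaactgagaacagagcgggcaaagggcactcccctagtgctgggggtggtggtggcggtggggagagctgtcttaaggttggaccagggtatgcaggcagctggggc
The Kcnc1 window held 3 GC boxes and 74.4% G and C, and the Kcnc2 window held 0 GC boxes and 52.8%. RefSeq lists 4 windows for Kcnc2. The one shown is the nearest to the start of the gene in GENCODE, and the others are not described singly. A GC box was found in 34 of 78 windows listed for 55 of the potassium channel genes (43.6%) and in 32.7% of all 32851 windows. TATAAA was found in 2 of the 78 windows and in 12.4% of all windows. The motifs do not overlap, and a match describes the letters only.

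Kv1 genes, which encode axonal pores that oppose repetitive firing, were higher in both neuron classes for all 4 members tested. The background was 19.1% of all genes tested in excitatory and 17.8% in inhibitory neurons. Kcna2 stood at 122 ± 25.8 CPM in excitatory and 249 ± 59.7 CPM in inhibitory neurons (SD, n = 7), a log2 fold change of -1.01 ± 0.067 (SE, adjusted p = 7.97e-10, edgeR). Kcna4, an A-type pore that inactivates fast, was higher in excitatory neurons, at 22.5 ± 2.67 CPM against 12.5 ± 5.38 CPM in inhibitory neurons. Silent subunits, which assemble with Kv2 pores, went both ways. Kcnv1 stood at 72.5 to 115 CPM (median 88.7) in excitatory neurons and 2.8 to 10.5 CPM (median 4.25) in inhibitory neurons, whereas Kcns3 stood at 0.706 to 4.8 CPM (median 3.1) in excitatory neurons and 38.5 to 61 CPM (median 44.4) in inhibitory neurons. Neither pair of ranges overlapped, and the log2 fold changes were 3.97 ± 0.20 for Kcnv1 and -4.13 ± 0.39 for Kcns3 (SE, adjusted p = 7.19e-09 and 5.81e-05, edgeR). Each gene passed the filter on low counts through the class where it was high, so these p-values are no added support beside the levels. Kcng1, another silent subunit, stood at 20.2 ± 11 CPM in excitatory and 1.67 ± 1.33 CPM in inhibitory neurons. Kcnf1 stood at 112 CPM in excitatory and 51.2 CPM in inhibitory neurons.

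The Kv4 pores and their KChIP partners did not divide together. Kcnd2, the A-type pore of dendrites, stood at 89.9 ± 11.3 CPM in excitatory and 86.5 ± 12.6 CPM in inhibitory neurons (SD, n = 7) and did not pass the test between them, with a log2 fold change of 0.072 ± 0.064 (SE, adjusted p = 0.346, edgeR). Its partner Kcnip3 stood at 73 to 105 CPM (median 82.9) in excitatory and 7.37 to 16.6 CPM (median 10.9) in inhibitory neurons, and Kcnip1 stood at 2.56 to 5.5 CPM (median 4.26) in excitatory and 93.1 to 172 CPM (median 129.9) in inhibitory neurons. Excitatory over inhibitory, the log2 fold change of Kcnip3 was 2.93 ± 0.11 and that of Kcnip1 was -4.95 ± 0.18 (SE, adjusted p = 1.11e-12 and 1.44e-09, edgeR). Kcnip1 passed the filter on low counts through inhibitory neurons, where it was high, so its p-value is no added support beside the levels. All 3 Kv beta genes, which bind Kv1 pores, were higher in inhibitory than in excitatory neurons. Kcnab3 differed most among them, at 13.8 ± 11.7 CPM in excitatory and 81.7 ± 25 CPM in inhibitory neurons.

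Of the Kv7 genes, whose pores carry the M-current that acetylcholine shuts, Kcnq3 and Kcnq5 were called higher in excitatory neurons. Kcnq3 stood at 127 ± 19.95 CPM in excitatory and 108 ± 28 CPM in inhibitory neurons (SD, n = 7), and Kcnq5 at 71.3 ± 15.3 CPM in excitatory and 35.9 ± 10.8 CPM in inhibitory neurons. In the EAG family Kcnh7, an ERG-type pore, led with 196 ± 43.3 CPM in excitatory and 94.7 ± 36.4 CPM in inhibitory neurons. Kcnh3 differed more, at 76.9 ± 8.81 CPM in excitatory and 10.2 ± 5.28 CPM in inhibitory neurons, and Kcnh2 went the other way at 7.29 ± 1.95 CPM in excitatory and 28.1 ± 3.96 CPM in inhibitory neurons. The BK pore Kcnma1, which answers calcium and voltage, stood at 327 ± 28.8 CPM in excitatory and 198 ± 22 CPM in inhibitory neurons. Its beta subunits split by class. Kcnmb4 stood at 84 to 120.3 CPM (median 95.6) in excitatory and 27.5 to 54.4 CPM (median 37.2) in inhibitory neurons, and Kcnmb2 stood at 0 to 1.41 CPM (median 0.386) in excitatory and 41.7 to 71.7 CPM (median 52) in inhibitory neurons. The sodium-activated pores Kcnt1 and Kcnt2 stood at 39.2 and 29.7 CPM in excitatory neurons and at 37.1 and 15.2 CPM in inhibitory neurons.

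Inward rectifiers and leak channels completed the neuronal set. Kcnj3, a G-protein-gated subunit, did not pass the test at 118 ± 25.3 CPM in excitatory and 106 ± 27.7 CPM in inhibitory neurons (SD, n = 7), and Kcnj9, which pairs with it, was called higher in excitatory neurons at 110.2 ± 6.85 CPM against 82.1 ± 14.1 CPM in inhibitory neurons. Kcnj4, a strong rectifier, stood at 97.3 ± 18.9 CPM in excitatory and 43.6 ± 8.47 CPM in inhibitory neurons. Of the acid-sensitive leak pores, Kcnk9 was higher in excitatory neurons at 55.2 ± 6.61 CPM against 23.1 ± 7.29 CPM in inhibitory neurons, and Kcnk3 was lower in excitatory neurons at 21.1 ± 4.35 CPM against 81.7 ± 18.9 CPM in inhibitory neurons. In all, 60 of the 78 genes could be tested between the neuron classes by edgeR. Excitatory neurons were higher for 29 (background 30.7% of all genes tested) and lower for 19 (background 30.5%). Of these, 18 and 13 passed 2-fold, which was not counted over all genes. The share of genes called was 61.2% over all genes, so the counts are read beside a comparison in which most genes differed.

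Pericytes, the contractile cells on capillaries, held 3 genes that were at or near 0 in most other classes. Kcnj8, the pore of the vascular ATP-sensitive channel, stood at 1029.7 to 2365 CPM (median 1300.0) in pericytes, and no library of any other class exceeded 2.62 CPM. Kcne4, a small modulatory subunit, stood at 163 to 934 CPM (median 275) in pericytes. Its next highest class was newly formed oligodendrocytes at 19.2 to 129 CPM (median 42.1). The highest pericyte value, 934 CPM, was that of PFC DTA replicate 3. Kcnmb1, the beta subunit of BK channels in vascular muscle, stood at 56 to 92.1 CPM (median 67.7) in pericytes and at no more than 0.757 CPM elsewhere. Kcnj8 and Kcne4 were called by edgeR and DESeq2. For Kcnmb1, edgeR gave an adjusted p of 8.71e-21 and DESeq2 gave 0.173. Kcnj8 and Kcnmb1 passed the filter on low counts through pericytes alone, so their calls are no added support beside the levels. The partner of Kcnj8 in the channel, Abcc9, which encodes the sulfonylurea receptor of vessels, was called higher in pericytes as well. Smooth muscle cells had a gate of their own, whose 109 cells (2 to 45 per library) were too few to analyse, and 4 of their 5 markers were still present in the pericyte gate. Acta2 stood at 0 to 191 CPM there, Tagln at 5.35 to 203 CPM, Myh11 at 10.7 to 67.7 CPM and Tpm2 at 109 to 243 CPM, and Cnn1 at 0 in all 7 libraries. In PFC DTA replicate 1, where Acta2 was at 0, Kcnj8 stood at 1083 CPM, Kcne4 at 338 CPM and Kcnmb1 at 67.7 CPM. The pericyte gate of that library held 17 cells and 14774 UMIs, too few for Acta2 at 0 to tell whether muscle cells were present. The part of muscle cells in the pericyte values was not tested further.

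The promoters of these 3 genes are shown because the genes share the pericyte pattern, as 250 bases before the RefSeq start (GRCm38.p6), 5′ to 3′, with capitals as for Kcnc1. The RefSeq start of Kcne4 lies 153 bases from the start of the gene in GENCODE, and those of Kcnj8 and Kcnmb1 coincide.
Kcnj8, chr6:142571615-142571864, minus strand: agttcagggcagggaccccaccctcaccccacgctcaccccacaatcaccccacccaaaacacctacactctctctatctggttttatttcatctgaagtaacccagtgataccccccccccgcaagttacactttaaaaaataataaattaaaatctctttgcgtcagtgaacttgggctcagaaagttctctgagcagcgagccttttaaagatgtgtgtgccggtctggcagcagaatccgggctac
Kcne4, chr1:78816661-78816910, plus strand: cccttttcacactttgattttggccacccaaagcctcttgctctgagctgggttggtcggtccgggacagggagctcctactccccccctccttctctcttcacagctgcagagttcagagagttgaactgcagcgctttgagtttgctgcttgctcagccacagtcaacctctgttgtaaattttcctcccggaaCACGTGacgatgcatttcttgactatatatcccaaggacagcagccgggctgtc
Kcnmb1, chr11:33962763-33963012, plus strand: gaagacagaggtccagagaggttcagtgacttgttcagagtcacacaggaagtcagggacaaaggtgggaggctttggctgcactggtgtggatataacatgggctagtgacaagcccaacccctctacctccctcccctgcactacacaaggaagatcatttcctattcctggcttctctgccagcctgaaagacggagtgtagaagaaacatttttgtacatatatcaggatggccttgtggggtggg
None of the 3 windows held a GC box or TATAAA. The Kcne4 window held 1 E box, a motif found in 6.02% of all windows. The CArG box, which serum response factor binds, was in none of the 3 windows and in 1.47% of all windows. No match says only that these letters are not in the window.

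Microglia, the immune cells of the brain, had 3 of 8 leak channel (K2P) genes tested higher (background 16.7% of all genes tested). Another 2 were lower, as were 19.3% of all potassium channel genes tested there, and the median log2 fold change over the 8 was -0.72. The share of all genes lower is not given here. Kcnk13, whose pore makes up the main resting potassium current of microglia, stood at 54.7 to 81.1 CPM (median 61.5) in microglia. It was also high in oligodendrocytes, at 61.7 to 125 CPM (median 90.3), and at most 11.7 CPM in any library of the other 7 classes. Its close relative Kcnk12 stood at 22.4 to 85.9 CPM (median 59.6) in microglia and at 7.3 to 17.9 CPM (median 13.8) in excitatory neurons. Kcnk6, a leak channel found in immune cells, stood at 19.5 to 62.2 CPM (median 34.9) in microglia, against at most 3.77 CPM in any library elsewhere. It was also the single gene called in endothelial cells, at 1.28 ± 1.41 CPM (SD, n = 7), a level that excitatory neurons also had, at 1.27 ± 0.712 CPM. That call is against the mean of the other 8 classes, several of which were at or near 0. Kcnd1 of the Kv4 family stood at 22.3 ± 8.65 CPM in microglia and at 7.16 CPM in inhibitory neurons, the next highest class. The log2 fold changes against the mean of the other classes were 4.88 ± 0.21 for Kcnk13 and 4.15 ± 0.18 for Kcnk12 (SE, adjusted p = 4.15e-33 and 4.13e-32, edgeR). Kcnk6 passed the filter on low counts through microglia alone, and Kcnk12 in large part. Their calls, counted among the 3 above, are no added support beside the levels.

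In the oligodendrocyte lineage the levels are given by stage, and no test was run between the stages. Oligodendrocyte precursors had the highest Kcnip3 of all classes, at 273 to 469 CPM (median 316), and the highest Kcnk2, a leak channel opened by stretch and lipids, at 174 ± 30.6 CPM, next to 161 ± 50.5 CPM in astrocytes (SD, n = 7). Kcnk10, a relative of Kcnk2, stood at 46.2 ± 16.2 CPM in precursors and 13 ± 7.21 CPM in astrocytes. Kcnh8 stood at 7.94 to 28.6 CPM (median 23.3) in precursors and at no more than 11.4 CPM in any library elsewhere, that of newly formed oligodendrocytes, but it had too few counts to enter the fit. Kcnj16, a Kir subunit of glia, stood at 72.3 ± 15.8 CPM in precursors, 33 ± 25.6 CPM in newly formed oligodendrocytes and 0.373 ± 0.475 CPM in oligodendrocytes. Kcna1 ran the opposite way, at 44 ± 18.1 CPM in precursors, 142 ± 95.1 CPM in newly formed oligodendrocytes and 477 ± 78 CPM in oligodendrocytes. In oligodendrocytes Kcna1 ranged from 395 to 598 CPM, above every library of every other class. Kcna6 and Kcna2 were called in oligodendrocytes too, at 99 ± 15.8 CPM and 75.4 ± 19.6 CPM. The gate of newly formed oligodendrocytes held 206 cells, and its call for Kcna1 was lost under a stricter gate.

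Astrocytes, which take up the potassium released by neurons, held Kcnk1, Kcnn2 and Kcnj16. Kcnk1, a leak channel, stood at 358 to 584 CPM (median 519) in astrocytes, and the highest library elsewhere reached 175 CPM. Kcnn2, an SK channel opened by calcium, stood at 161 to 422 CPM (median 189), and its highest library elsewhere reached 115 CPM in inhibitory neurons. Kcnn3, another SK channel, stood at 23.1 ± 5.38 CPM in astrocytes and at most 3.52 CPM in the mean of any other class (SD, n = 7). Kcnj16 stood at 69.2 ± 13.4 CPM, close to the level in oligodendrocyte precursors, and their ranges overlapped. The log2 fold changes in astrocytes were 3.92 ± 0.13 for Kcnk1, 4.47 ± 0.17 for Kcnn2 and 5.56 ± 0.20 for Kcnj16 (SE), all with an adjusted p of at most 1.46e-32 by edgeR. Kcne1l, a Kcne relative, and the silent subunit Kcng4 stood at 19.4 ± 6.98 CPM and 11.3 ± 5.87 CPM in astrocytes and were too low to be tested. Kcnq1, a Kv7 pore of epithelia and heart, stood at 9.4 to 34.1 CPM (median 19) in endothelial cells, and it too was not tested. It stood at 0 in all libraries of astrocytes, precursors, microglia and pericytes.

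**Figure D2:**
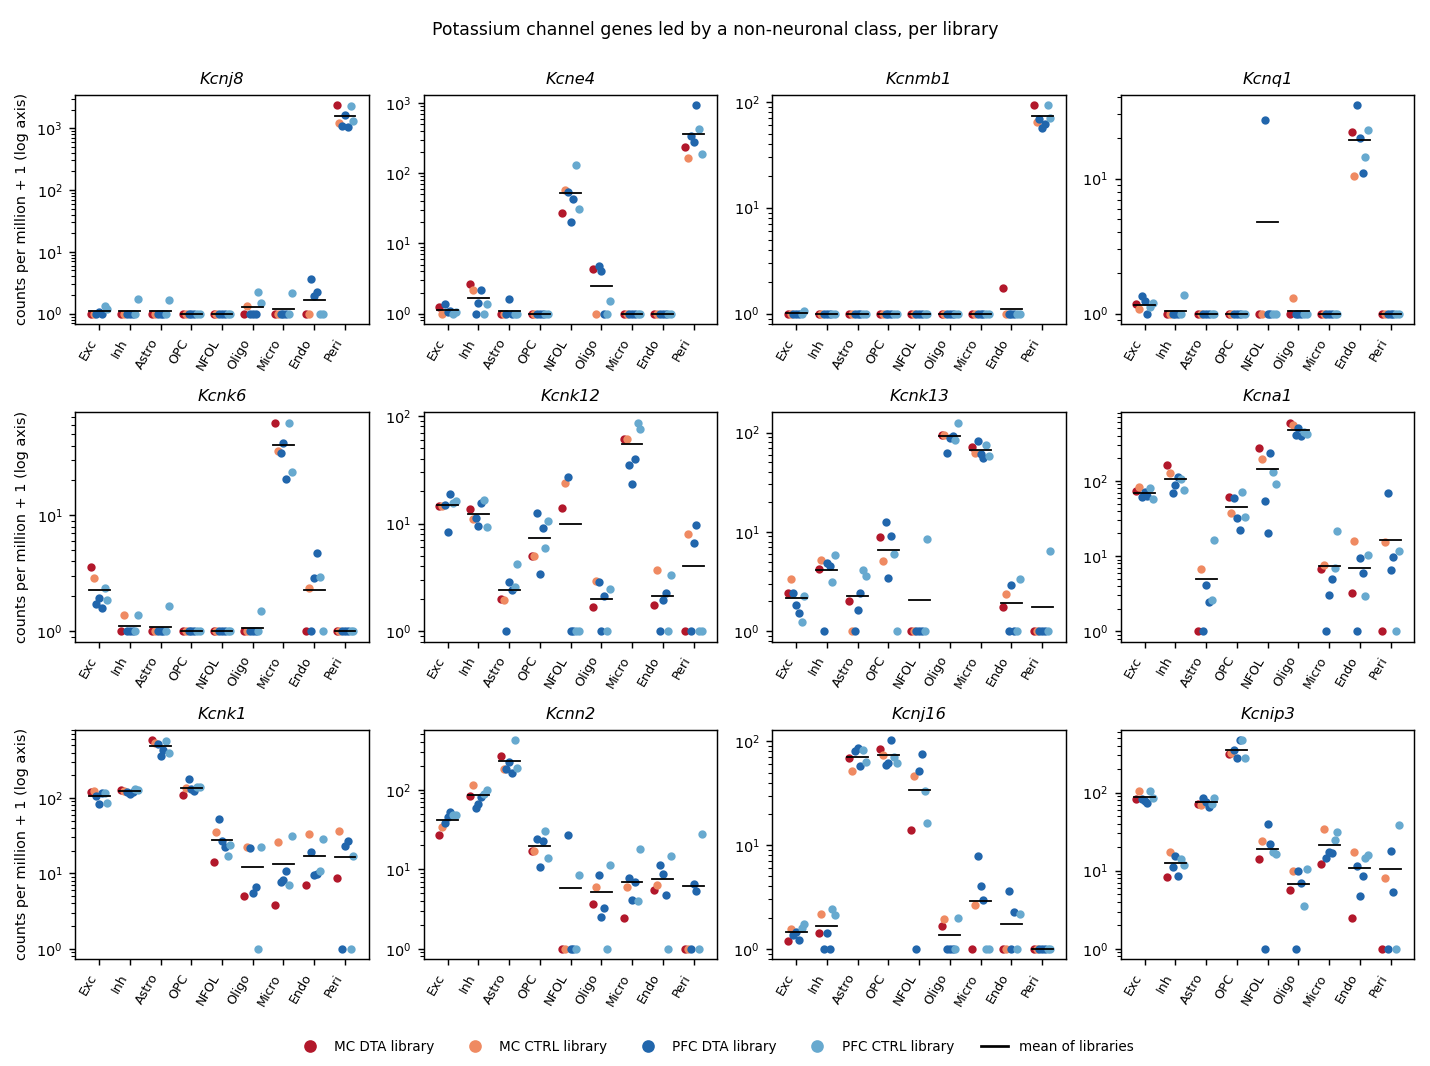
Level per library (points, coloured by area and genotype, CPM plus 1 on a log axis) of 12 potassium channel genes in 9 classes, with the mean as a line; Exc, Inh, Astro, OPC, NFOL, Oligo, Micro, Endo and Peri stand for excitatory neurons, inhibitory neurons, astrocytes, oligodendrocyte precursors, newly formed oligodendrocytes, oligodendrocytes, microglia, endothelial cells and pericytes. Kcnj8 is at 1029.7 CPM or more in all pericyte points and under 3 CPM elsewhere.

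Within inhibitory neurons, 4 subtypes were gated by their own markers, and each was set against the mean of the other 3. In this fit 39 potassium channel genes were tested. Pvalb interneurons, the fast-spiking basket and chandelier cells, were higher for 18 (background 5.7% of all genes tested) and lower for 5 (background 5.58%). Sst interneurons, which contact dendrites, were higher for 7 (background 3.72%), Vip interneurons, which inhibit other interneurons, for 7 (background 4.29%), and Lamp5 interneurons, largely neurogliaform cells, for 6 (background 4.35%). Sst interneurons were lower for 5 (background 3.11%), Vip interneurons for 12 (background 4.19%) and Lamp5 interneurons for 7 (background 4.73%). The gates are small, with 549, 423, 267 and 312 cells, and in PFC DTA replicate 1 each held 10 to 15.

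The 18 genes of Pvalb interneurons included the Kv3 pores Kcnc1 and Kcnc2, the Kv1 pores Kcna1, Kcna2 and Kcna6 and all 3 Kv beta genes. Kcnc1 stood at 979 to 1819 CPM (median 1121) in Pvalb interneurons, above every library of the other subtypes, whose highest was 559 CPM. Kcnc2 stood at 568 to 1088 CPM (median 829) in Pvalb interneurons and at 254 to 410.4 CPM (median 343) in Sst interneurons, and it was called higher in both. Kcnip2 had the largest fold, at 221 to 344 CPM (median 284) in Pvalb interneurons and at most 55.2 CPM elsewhere. Kcnab3 stood at 74.8 to 229 CPM (median 172), and it overlapped Sst interneurons, whose highest library was 89.5 CPM. Against the other subtypes, the log2 fold changes were 3.77 ± 0.14 for Kcnip2, 2.94 ± 0.09 for Kcnc2 and 2.39 ± 0.14 for Kcnab3 (SE, adjusted p = 2.64e-32, 1.02e-43 and 1.15e-24, edgeR). Genes lower in Pvalb interneurons were Kcnk9, Kcnd3, Kcnc4, Kcnf1 and Kcnn2. Kcnk9 stood at 2.08 ± 1.81 CPM there (SD, n = 7).

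The other subtypes had their own sets. Sst interneurons were highest for Kcnmb4 at 92.2 ± 40.4 CPM, with 19.4, 22.9 and 11.9 CPM in Pvalb, Vip and Lamp5 interneurons (SD, n = 7). Kcnf1 was called in both Sst and Vip interneurons, at 107 ± 28 CPM and 86.2 ± 24.7 CPM, against 16.8 CPM in Pvalb and 12.5 CPM in Lamp5 interneurons. Kcnn2 was called in Lamp5 and Vip interneurons, at 191 to 276 CPM (median 248) and 37.8 to 169.8 CPM (median 145). It was lower in Pvalb interneurons, at 15 to 47.5 CPM (median 27.4), and in Sst interneurons, at 8.81 to 23.5 CPM (median 13.8). Kcnc4, a Kv3 pore that was higher in excitatory neurons, was called in Lamp5 interneurons at 79.9 ± 38.1 CPM and in Sst interneurons at 72.8 ± 26.4 CPM, against 9.59 CPM in Pvalb interneurons. The leak gene Kcnk9 was called in Vip interneurons at 50.6 ± 19.4 CPM. Kcnk2 was called in Sst interneurons at 145 ± 50.01 CPM, although its range of 55.2 to 223 CPM overlapped that of Pvalb interneurons.

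**Figure D3:**
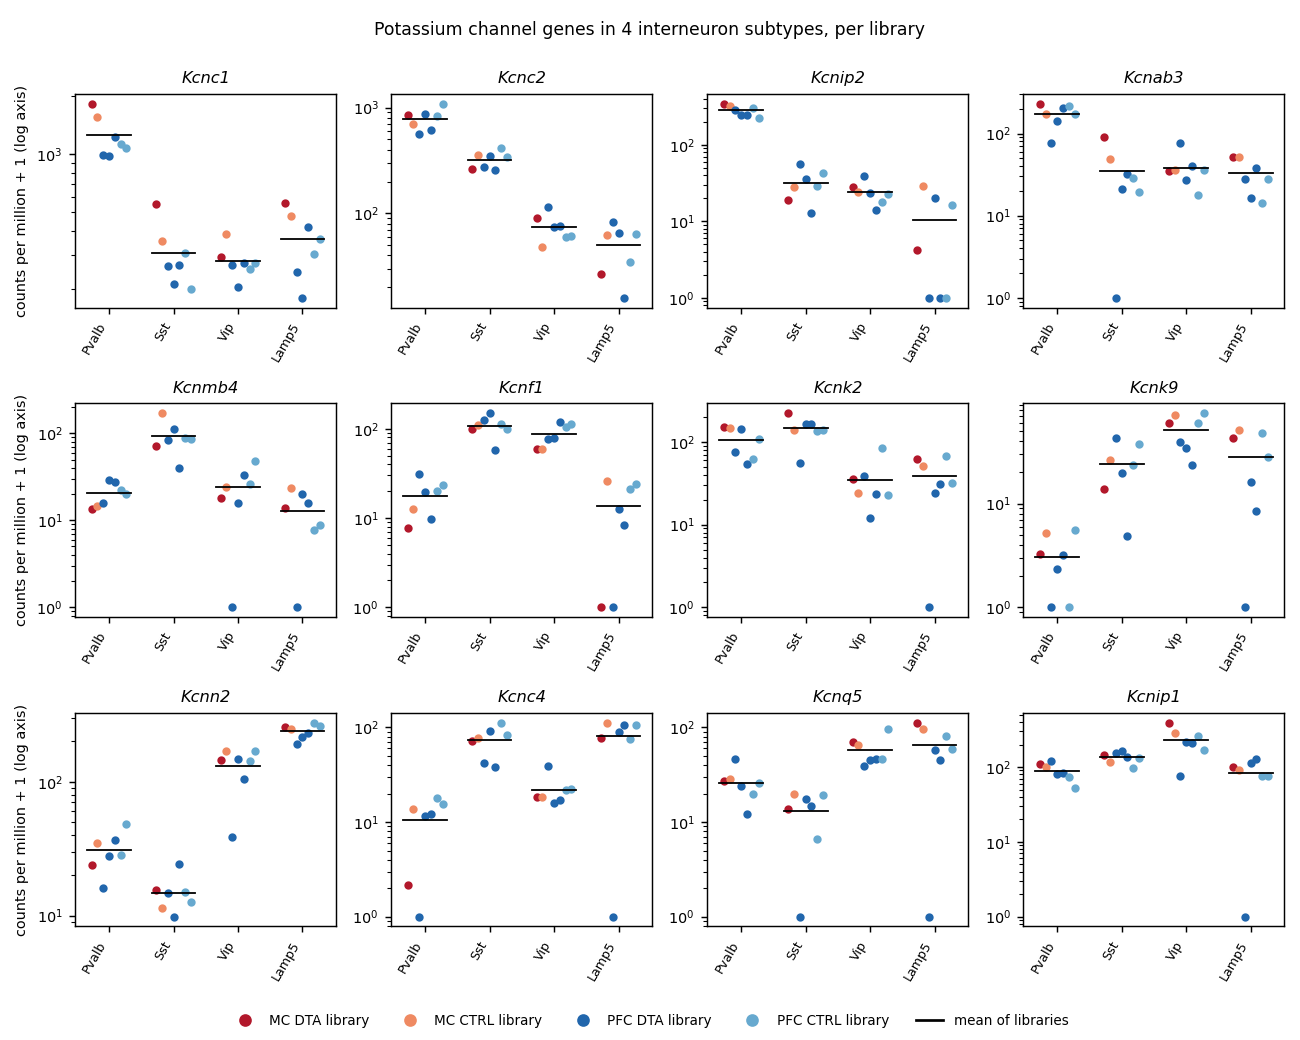
Level per library (points, CPM plus 1 on a log axis, coloured by area and genotype) of 12 potassium channel genes in Pvalb, Sst, Vip and Lamp5 interneurons, with the mean as a line. Kcnc1, Kcnc2, Kcnip2 and Kcnab3 are highest in Pvalb interneurons, Kcnmb4 in Sst interneurons and Kcnn2 in Lamp5 interneurons at 239 CPM.

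Within excitatory neurons, 4 layer subtypes were compared in the same way with 56 genes tested. Layer 2/3 neurons, which project within the cortex, were higher for 8 genes (background 4.26%), layer 4/5 intratelencephalic (IT) neurons for 8 (background 2.72%), layer 5 near-projecting (NP) neurons for 8 (background 3.85%) and layer 6 corticothalamic (CT) neurons for 4 (background 2.96%). Lower calls numbered 5 (background 3.73%) in layer 2/3, 3 (background 1.94%) in layer 4/5 IT, 5 (background 2.06%) in layer 5 NP and 12 (background 5.21%) in layer 6 CT neurons. Kcnip1, low in excitatory neurons as a class, stood at 20.3 to 149 CPM (median 72.5) in layer 5 NP neurons (n = 6 libraries), and no library of the other layers exceeded 2.21 CPM. Kcna5, a Kv1 pore best known from heart and vessels, stood at 7.25 to 40.1 CPM (median 21.1) in layer 5 NP neurons and at most 5.02 CPM elsewhere. The log2 fold changes were 6.36 ± 0.30 for Kcnip1 and 4.97 ± 0.59 for Kcna5 (SE, adjusted p = 1.78e-19 and 4.56e-08, edgeR). Both genes passed the filter on low counts through layer 5 NP neurons alone, so these p-values are no added support. Kcnj2, a strong inward rectifier, stood at 21.8 ± 5.85 CPM in layer 2/3 neurons, against 5.29, 1.23 and 8.53 CPM in layer 4/5 IT, layer 5 NP and layer 6 CT neurons (SD, n = 7). Kcnab1 was called in layer 4/5 IT and layer 5 NP neurons at 102 ± 38.8 CPM (n = 5) and 130.1 ± 48 CPM (n = 6), and was lower in layer 6 CT neurons at 10.5 ± 5.4 CPM (SD). Kcnk3 and Kcna1 were called in layer 6 CT neurons, at 39.9 ± 12.4 CPM and 120.5 ± 28.6 CPM. Kcnk2 was lower in layer 2/3 neurons, at 21 ± 7.05 CPM against 264 CPM in layer 5 NP neurons. The layer 4/5 IT gate had enough cells in 5 libraries, and 82% of its cells lay near the limits of the gate, as did 69.3% in layer 5 NP neurons.

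Of 14 genes for known partners of potassium channels, 9 were tested in the class comparison. Excitatory neurons were higher for 8 of the 9 (background 19.1%) and inhibitory neurons for 8 (background 17.8%). Cntnap2, an adhesion protein that clusters Kv1 channels on axons, had a log2 fold change of 4.45 ± 0.18 in inhibitory neurons (SE, adjusted p = 1.16e-28, edgeR). Cntn2, which works with it on the axon, was higher in oligodendrocytes with 5.39 ± 0.14 (SE, adjusted p = 4.74e-47, edgeR). Dpp6, a partner of Kv4 pores, was higher in inhibitory neurons with 2.46 ± 0.14, in oligodendrocyte precursors with 2.06 ± 0.20 and in excitatory neurons with 1.47 ± 0.14 (SE, adjusted p = 1.08e-24, 9.21e-14 and 3.35e-15, edgeR). Of 3 Kv4 genes, 3, 2 and 3 were called higher in these classes (background 17.8%, 12.7% and 19.1%).

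The comparison of genotypes asks whether loss of the retinal cells changed these genes in the PFC. None of the potassium channel genes passed an adjusted p of 0.05 in any of 16 cell types, by edgeR or DESeq2. The share of all genes called was 0.015% in oligodendrocyte precursors, 0.0284% in Lamp5, 0.0274% in Pvalb and 0.1% in Vip interneurons, and 0% in the other 12 cell types, excitatory and inhibitory neurons among them. At an unadjusted p under 0.05, edgeR gave 1 of 68 genes in excitatory neurons (2.3% of all genes) and 5 of 53 in inhibitory neurons (5.32% of all genes). The 95% interval of the fold lay within 2-fold either way for 58 of 68 genes in excitatory neurons (78% of all genes) and 43 of 53 in inhibitory neurons (76.1% of all genes), so larger changes of these genes lie outside their intervals. The same held for 8 of 38 genes in astrocytes (51.7% of all genes) and for 0 of 4 in pericytes (9.89% of all genes), and for the other genes a 2-fold change lay within the interval.

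The 2 genes with the smallest p in each direction are given as values. In excitatory neurons Kcng2, a silent subunit, stood at 6.03, 5.25 and 6.98 CPM in DTA, against 2.75 and 4.55 CPM in CTRL, a log2 fold change of 0.75 (95% interval 0.089 to 1.42, adjusted p = 0.9998, edgeR). Kcnh5 of the EAG family stood at 5.68, 3.95 and 6.98 CPM in DTA, against 3.55 and 3.55 CPM in CTRL, a log2 fold change of 0.67 (95% interval -0.052 to 1.38, adjusted p = 0.9998, edgeR). Kcnh6, also of the EAG family, stood at 0, 0.65 and 0.75 CPM in DTA, against 1.03 and 1.41 CPM in CTRL, a log2 fold change of -0.97 (95% interval -2.29 to 0.35, adjusted p = 0.9998, edgeR). Kcnip3 stood at 82.7, 76.5 and 73 CPM in DTA, against 105 and 83.8 CPM in CTRL, with a log2 fold change of -0.25 (95% interval -0.60 to 0.091, adjusted p = 0.9998, edgeR). DTA and CTRL libraries did not overlap for any of these 4 genes. They were picked by their p in these same libraries, so the separation is no added support. In inhibitory neurons Kcnk9 stood at 17.1, 18.7 and 12.9 CPM in DTA, against 26.6 and 30.8 CPM in CTRL, a log2 fold change of -0.80 (95% interval -1.36 to -0.24, adjusted p = 0.855, edgeR). Kcnh7 stood at 61.5, 68.4 and 60.8 CPM in DTA, against 80.6 and 118 CPM in CTRL, a log2 fold change of -0.60 (95% interval -1.02 to -0.18, adjusted p = 0.855, edgeR). For both genes the 3 DTA libraries lay below the 2 CTRL libraries, which is no added support either, as they too were picked by p. Kcnip1 stood at 109, 129.9 and 141 CPM in DTA, against 116 and 93.1 CPM in CTRL, a log2 fold change of 0.36 (95% interval -0.031 to 0.76, adjusted p = 0.894, edgeR). Kcnip4, another KChIP gene, stood at 95.7, 67.1 and 57.9 CPM in DTA, against 59.5 and 58.6 CPM in CTRL, a log2 fold change of 0.25 (95% interval -0.20 to 0.70, adjusted p = 0.938, edgeR).

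Summed over all 78 genes, potassium channels made up 3665, 4350.4 and 3894 CPM in the inhibitory neurons of PFC DTA, against 4590.0 and 4749.9 CPM in PFC CTRL. The share of inhibitory neurons in the Pvalb gate was 16.9, 24.2 and 19.2% in PFC DTA and 26.2 and 26.3% in PFC CTRL, and its part in the summed level was not tested. In excitatory neurons the sums were 3469, 3608 and 3672 CPM in DTA and 3783 and 3684 CPM in CTRL. Within Pvalb interneurons 2 of 37 genes had an unadjusted p under 0.05 by edgeR (7.33% of all genes), and the median log2 fold change was -0.055. Fewer cells of a subtype and less RNA per cell cannot be told apart in the summed counts.

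Leaving out 1 library at a time gave between 0 and 3 calls over all cell types. Without PFC DTA replicate 3, the library with high Malat1, there were 0. Without PFC CTRL replicate 1, Kcnc1 and Kcnc2 were among the calls in oligodendrocytes, and without PFC CTRL replicate 2 Kcnma1 was called there. Each of these fits holds 1 CTRL library, so the spread comes from the 3 DTA libraries and the lone CTRL library is assumed to vary like them. These are genes of neurons, and Snap25 in oligodendrocytes stood at 348, 148 and 269.9 CPM in PFC DTA, against 59.97 and 397 CPM in PFC CTRL. Its part in the calls was not tested. Without PFC DTA replicate 2, Kcnh7, Kcnmb4os2 and Kcnq5 were called in layer 5 NP neurons. Calls in the fits without a library were not counted over all genes, so they have no background and do not single out these genes. The difference of the genotype effect between excitatory and inhibitory neurons was tested for 66 genes and gave 0 calls (background 0.00833% of all genes), with 10 at an unadjusted p under 0.05 by edgeR (4.84% of all genes). DESeq2 gave 0 calls as well. Without the filter on low counts, without PFC CTRL replicate 1 or without PFC DTA replicate 2, Kcnh7 was the 1 call of that test.

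**Figure D4:**
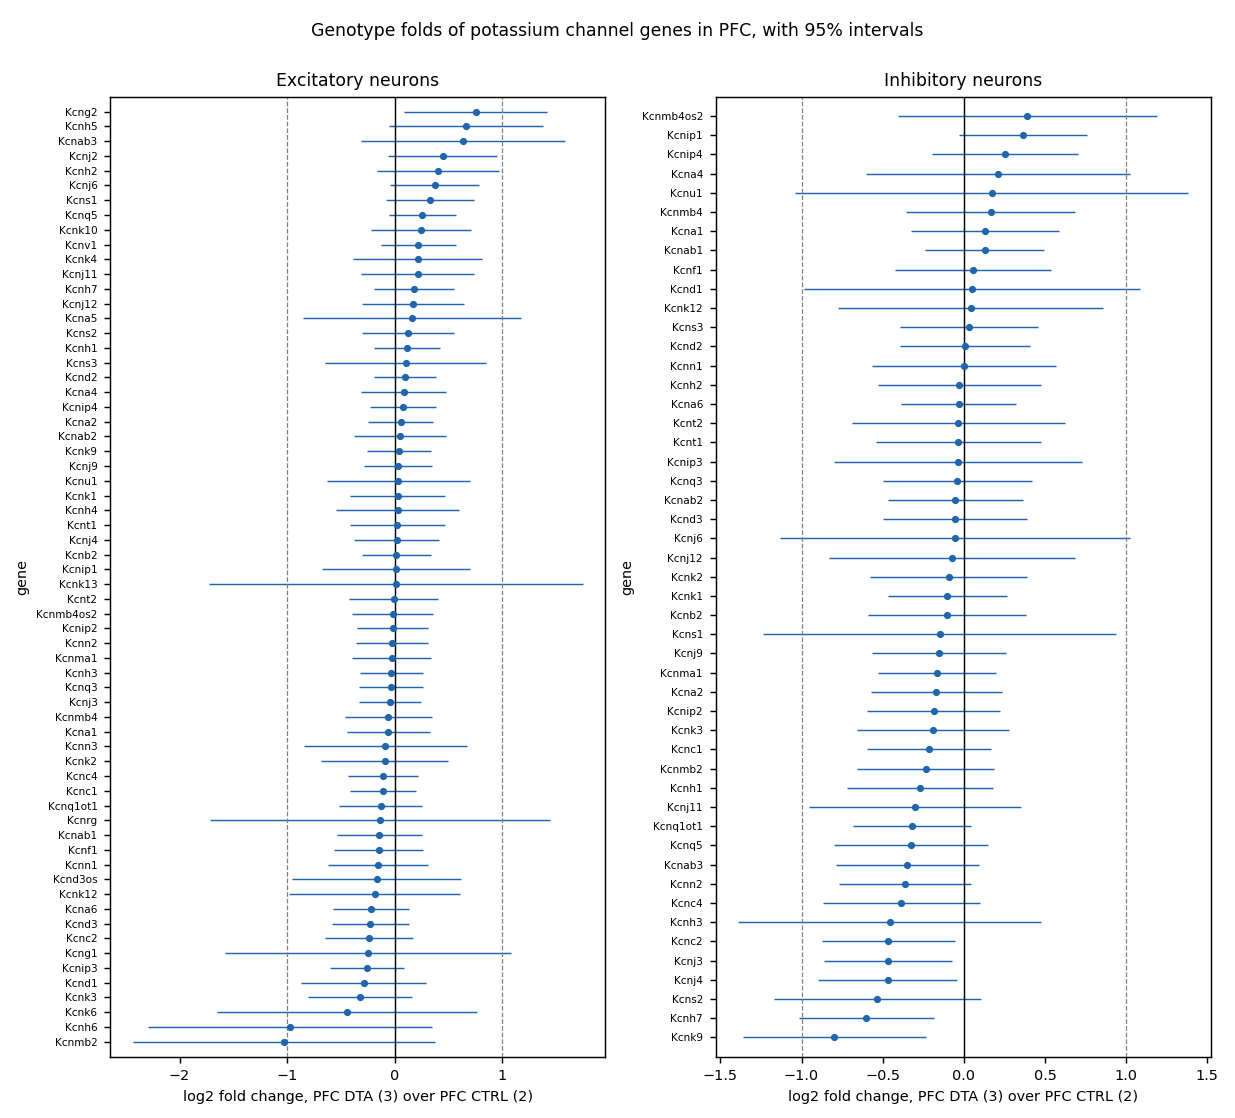
Log2 fold change of PFC DTA (3 libraries) over PFC CTRL (2 libraries) for potassium channel genes tested in excitatory (left) and inhibitory neurons (right), as points with 95% intervals, dashed lines at 2-fold. Most points lie within 2-fold, and the lowest inhibitory point is Kcnk9 at -0.80.

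In the MC each genotype had 1 library, so the values carry no replicate check and no test. Of potassium channel genes with at least 50 counts in both libraries, 1 of 54 differed by 2-fold or more in excitatory neurons (background 0.879% of all such genes) and 0 of 40 in inhibitory neurons (background 0.436%). The one was Kcnh5, at 11.4 CPM in MC DTA and 5.25 CPM in MC CTRL, a log2 ratio of 1.12 (95% interval 0.68 to 1.56, counting error only). Its direction was that of the PFC libraries, where it did not pass the test. Other genes differed in direction between the areas, such as Kcng1 in excitatory neurons. Its log2 ratio was 0.56 in the MC and its log2 fold change was -0.25 in the PFC. Kcnip3 stood at 82.9 CPM in MC DTA and 105 CPM in MC CTRL, a log2 ratio of -0.34 (95% interval -0.46 to -0.22, counting error only) in excitatory neurons. In inhibitory neurons the largest ratios were those of Kcnmb4, at 28.3 CPM in MC DTA and 45.9 CPM in MC CTRL, a log2 ratio of -0.70 (95% interval -1.15 to -0.26, counting error only), and Kcnh1, at 32 CPM in MC DTA and 49.4 CPM in MC CTRL, a log2 ratio of -0.63 (95% interval -1.05 to -0.21, counting error only). In PFC inhibitory neurons the log2 fold change was 0.16 for Kcnmb4, the opposite direction, and -0.27 for Kcnh1, the same direction. The median log2 ratio over the genes in the MC was 0.014 in excitatory and -0.12 in inhibitory neurons.

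Between the areas, potassium channel genes were called in neurons. MC was set against PFC over all 7 libraries with genotype as a term. In excitatory neurons 16 of 68 potassium channel genes were higher in MC (background 3.42% of all genes tested) and 5 were lower (background 2.86%). In inhibitory neurons 5 of 56 were higher (background 1.21%) and 0 lower, where 25 of the 56 had an unadjusted p under 0.05 by edgeR (15.9% of all genes). No potassium channel gene was called in astrocytes, oligodendrocyte precursors, newly formed oligodendrocytes, oligodendrocytes, microglia, endothelial cells or pericytes by edgeR, where 4, 0, 0, 1, 0, 1 and 0 had an unadjusted p under 0.05 (1.5 to 7.14% of all genes). There the share of all genes called was 0.148% in astrocytes and 0% in the other 6 classes.

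In excitatory neurons the Kv3 pore Kcnc2 stood at 52.2 CPM in MC DTA and 50.3 CPM in MC CTRL, against 14.9, 15.6 and 14.9 CPM in PFC DTA and 14.9 and 22 CPM in PFC CTRL. Both MC libraries lay above all PFC libraries, and the log2 fold change was 1.63 ± 0.14 (SE, adjusted p = 7.8e-05, edgeR). Kcnab3 stood at 32.5 CPM in MC DTA and 28.4 CPM in MC CTRL, against 9.93, 4.5 and 10.3 CPM in PFC DTA and 6.76 and 3.88 CPM in PFC CTRL, a log2 fold change of 2.26 ± 0.32 (SE, adjusted p = 0.00549, edgeR). Kcnk2, the stretch-sensitive leak channel, stood at 155 CPM in MC DTA and 121 CPM in MC CTRL, against 47.9, 81.8 and 44 CPM in PFC DTA and 68.5 and 60.2 CPM in PFC CTRL. Here too the areas did not overlap, with a log2 fold change of 1.18 ± 0.22 (SE, adjusted p = 0.0171, edgeR). Others higher in MC included the pores Kcna2, Kcnq3, Kcnq5, Kcnt1, Kcnh1, Kcnh4 and Kcnh7, the rectifiers Kcnj2 and Kcnj3, the silent subunit Kcns2 and the auxiliary Kcnip2, by log2 fold changes of 0.42 to 1.01. All 16 had both MC libraries above all PFC libraries. They were called on these same libraries, so this is no added support.

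Lower in the excitatory neurons of MC were Kcnab1, Kcnn2, Kcnn3, Kcnk10 and Kcns3. Kcnab1, a Kv beta subunit, stood at 37 CPM in MC DTA and 31.1 CPM in MC CTRL, against 57.1, 59.5 and 49.2 CPM in PFC DTA and 48.2 and 77.4 CPM in PFC CTRL. Its MC libraries lay below all PFC libraries, and the log2 fold change was -0.77 ± 0.18 (SE, adjusted p = 0.023, edgeR). Kcnn2 stood at 25.9 CPM in MC DTA and 32.8 CPM in MC CTRL, against 37.6, 45.1 and 51.6 CPM in PFC DTA and 47.9 and 47 CPM in PFC CTRL, a log2 fold change of -0.67 ± 0.14 (SE, adjusted p = 0.0123, edgeR). Kcns3, low in excitatory neurons of both areas, stood at 0.706 CPM in MC DTA and 0.927 CPM in MC CTRL, against 2.48, 3.1 and 4.8 CPM in PFC DTA and 3.32 and 3.61 CPM in PFC CTRL. The 5 genes had MC below PFC in all libraries, which follows in large part from their being called on these libraries.

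Some of this was present within layer subtypes. Layer 2/3 neurons had 11 genes higher in MC (background 3.66%) and 2 lower (background 3.02%), of 61 tested. Kcnab1 in layer 2/3 neurons stood at 6.02 CPM in MC DTA and 7.37 CPM in MC CTRL, against 26.5, 38.1 and 34.8 CPM in PFC DTA and 39.5 and 51.7 CPM in PFC CTRL, a log2 fold change of -2.60 ± 0.21 (SE, adjusted p = 8.89e-07, edgeR). Kcnc2 stood at 59.7 CPM in MC DTA and 61.1 CPM in MC CTRL, against 16.9, 21.7 and 21.7 CPM in PFC DTA and 22.4 and 23.8 CPM in PFC CTRL there, a log2 fold change of 1.45 ± 0.15 (SE, adjusted p = 7.64e-06, edgeR). Layer 6 CT neurons had 3 higher (background 1.29%) and 1 lower (background 1.36%), with Kcnab3 and Kcnip2 at log2 fold changes of 1.66 ± 0.27 and 1.19 ± 0.19 (SE, adjusted p = 0.000733 and 0.000732, edgeR). The share of excitatory neurons in the layer 2/3 gate was 36.6% in MC DTA and 29.6% in MC CTRL, against 12.5, 22.3 and 16.9% in PFC DTA and 15.6 and 14.4% in PFC CTRL. The layer 4/5 IT share was 9.35% in MC DTA and 5.33% in MC CTRL, against 0.79 to 3.94% in the PFC libraries. The layer 5 NP share was 1.29% in MC DTA and 2.02% in MC CTRL, against 4.11 to 8.47% in the PFC libraries. The part of these shares in the result for all excitatory neurons was not tested.

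In inhibitory neurons Kcnc1 stood at 956 CPM in MC DTA and 849 CPM in MC CTRL, against 403, 463 and 547 CPM in PFC DTA and 569 and 568 CPM in PFC CTRL. Both MC libraries lay above all PFC libraries, and the log2 fold change was 0.80 ± 0.15 (SE, adjusted p = 0.00466, edgeR). Kcnab2, a Kv beta subunit, stood at 214 CPM in MC DTA and 153 CPM in MC CTRL, against 61.5, 106 and 96.5 CPM in PFC DTA and 106 and 94.6 CPM in PFC CTRL, a log2 fold change of 0.91 ± 0.16 (SE, adjusted p = 0.00235, edgeR). Kcnh7 and Kcng4 were among the other 3 called, that of Kcng4 was lost in 7 of 13 alternative settings, and the areas overlapped for Kcnh7 alone of the 5. In Pvalb interneurons Kcnc1, Kcnab2 and Kcnh7 were among the genes higher in MC (background 0.685%), and in Sst interneurons Kcnc1, Kcnab2 and Kcnab3 were (background 0.543%). The calls of Kcnc1, Kcnab2 and Kcnh7 in Pvalb interneurons were each lost in 8 of 13 settings, the stricter gate and the fit without the genotype term among them, and that of Kcnab2 in Sst interneurons in 5 of 13. Kcnc1 in Pvalb interneurons stood at 1819 CPM in MC DTA and 1549 CPM in MC CTRL, against 987, 979 and 1226 CPM in PFC DTA and 1121 and 1077 CPM in PFC CTRL. The Pvalb share of inhibitory neurons was 28.8% in MC DTA and 27.8% in MC CTRL. Fos, Jun, Junb, Egr1 and Atf3, which respond to dissociation, summed to 312 CPM in MC DTA and 147 CPM in MC CTRL in inhibitory neurons, against 868, 586 and 2211 CPM in PFC DTA and 673 and 320.0 CPM in PFC CTRL. In excitatory neurons they summed to 673 and 551 CPM in the MC and to 720.3 to 1682 CPM in the PFC. Their part in the area results was not tested.

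The area difference itself differed between the neuron classes for 10 of 66 genes (background 3.23% of all genes tested), in a test added after the data had been seen. The signed log2 fold change, MC over PFC, was higher in excitatory than in inhibitory neurons for Kcnc2, Kcnab3 and Kcnk2, among others. It was lower in excitatory neurons for Kcns3, Kcnab1, Kcnn2, Kcnip1, Kcnip4 and Kcnc1. Kcnc2 in inhibitory neurons stood at 400.3 CPM in MC DTA and 359 CPM in MC CTRL, against 284, 446 and 291 CPM in PFC DTA and 448 and 535 CPM in PFC CTRL, where the areas overlapped, unlike in excitatory neurons. Kcns3 was lower in the excitatory neurons of MC, whereas in inhibitory neurons it stood at 61 CPM in MC DTA and 58.7 CPM in MC CTRL, against 44.4, 41.6 and 42.7 CPM in PFC DTA and 38.5 and 46.2 CPM in PFC CTRL, with both MC libraries above all PFC libraries. The area effect in excitatory minus that in inhibitory neurons was 1.76 ± 0.14 for Kcnc2 and -2.58 ± 0.34 for Kcns3 on the log2 scale (SE, adjusted p = 5.09e-08 and 2.56e-05, edgeR). The area calls rest on 2 MC libraries. Over 15 cell types there were 50 calls, and 10 without the MC CTRL library and 4 without the MC DTA library, in fits that hold 1 MC library and take the spread from the PFC libraries.

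**Figure D5:**
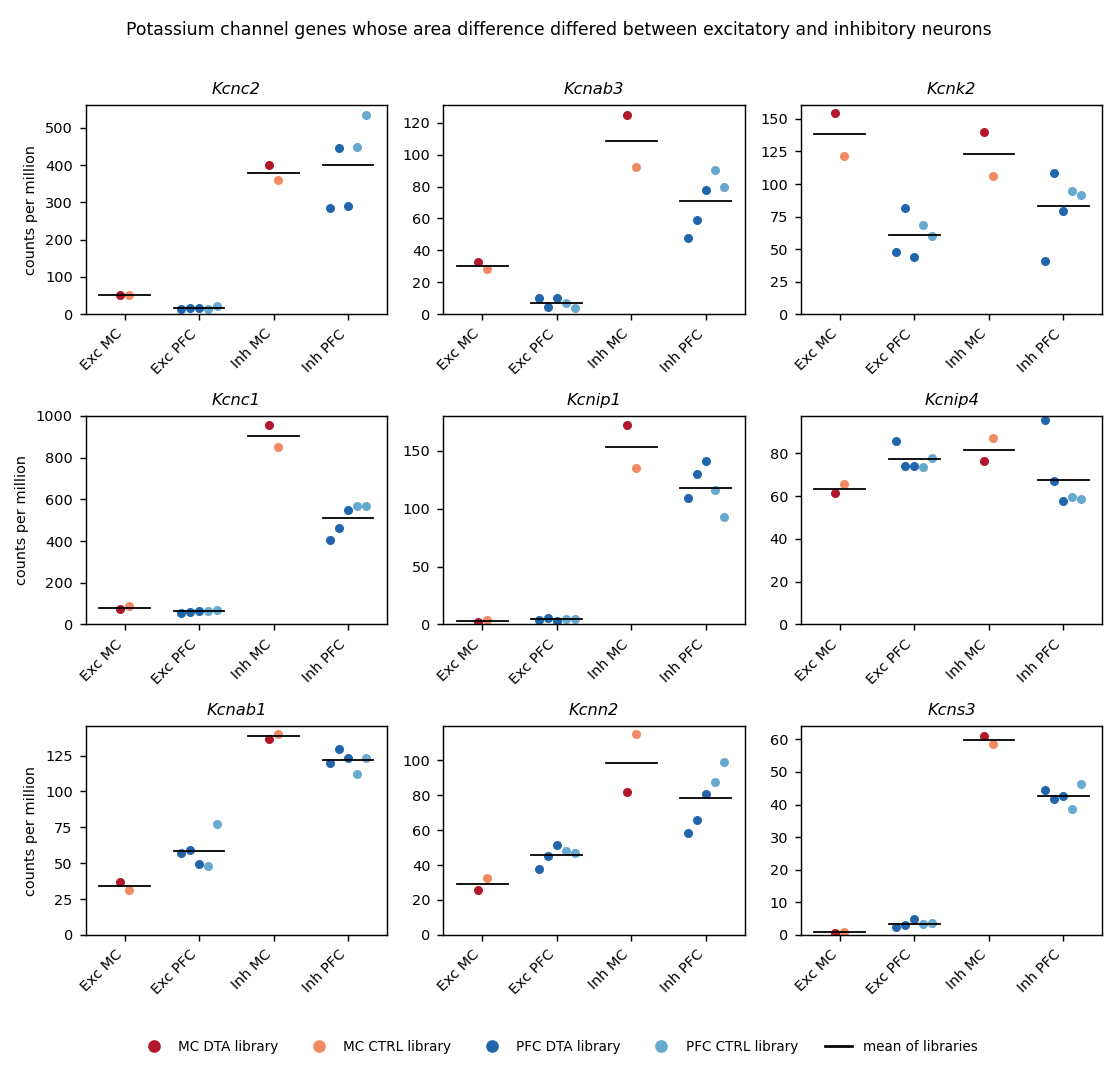
Level per library (points, CPM, axis from 0) in excitatory neurons of MC and PFC and inhibitory neurons of MC and PFC, with the mean as a line, for 9 of the 10 potassium channel genes whose area difference differed between the neuron classes. For Kcnc2 both MC points lie above the PFC points in excitatory neurons, at 52.2 and 50.3 CPM, and among them in inhibitory neurons.

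The sources used here do not say whether counting used the strand. For 26 of the 78 genes an exon lies opposite an exon of another gene in GENCODE vM21, among them Kcnmb4 with Kcnmb4os2, Kcnd3 with Kcnd3os and Kcnq1 with Kcnq1ot1. The values of such pairs are uncertain if reads of both strands were counted. For 2 genes, Kcnab2 and Kcnk4, the overlap is on the same strand. Kcnj8 lies at chr6:142564837-142571614 and Kcnc2 at chr10:112271121-112467024 in that annotation.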

How the data were processed

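The deposited values were UMI counts per gene and cell, made by the authors as 1 count table per library. Cell Ranger 3.0.2, Seurat and the build mm10 are listed in the submitters' processing notes, without their roles. Libraries were 10x 3' V2, per the labels' protocols. Cells were gated with 5 markers per class: at least 2 markers, at least 3 marker UMIs (each marker capped at 5) and at least 2 times the sum of any other class. This ratio stands in for the share of marker UMIs first planned. Cells below this ratio met no gate, and Scrublet calls were removed only as an alternative. Gates were kept with at least 150 cells and 10 cells in at least 5 libraries.

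Counts were summed per library and gate and tested with edgeR 4.0.16 in R 4.3.3 (quasi-likelihood, robust, TMM, a filter at 10 counts, Benjamini-Hochberg adjustment over all genes tested), with DESeq2 1.42.0 as an alternative. The scripts were tested on simulated data. CPM are counts per 1000000 of the gate's sum in a library, and intervals for single libraries cover counting error only. The genes, marker lists and partner list were chosen with earlier results of these data known. Genes were named by a fixed rule: the largest folds in each class, the most abundant member of each family, the smallest p each way between neuron classes and genotypes, and all calls by area. Kcnj9, Kcnh8, Kcne1l, Kcng4, Kcnq1 and the second gene of some families were named after their values were seen. Opn4 and Pou4f2 were not analysed here, and some genes that enter the counts are not reported here by name.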

Additional observations from a re-analysis of the deposited data

Results flagged for a closer look

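The area effect, MC over PFC, differed between excitatory and inhibitory neurons for 10 potassium channel genes by edgeR with the library as a block, in a test added after the data had been seen. For 9 of them, given as the effect in excitatory minus that in inhibitory neurons (log2, SE), the difference was 1.76 ± 0.34 for Kcnab3, 1.76 ± 0.14 for Kcnc2 and 0.72 ± 0.15 for Kcnk2. It was -2.58 ± 0.34 for Kcns3, -0.96 ± 0.16 for Kcnab1, -0.93 ± 0.14 for Kcnn2, -0.86 ± 0.24 for Kcnip1, -0.62 ± 0.14 for Kcnip4 and -0.47 ± 0.11 for Kcnc1. The adjusted p (edgeR) of the 9 ran up to 0.0459. By DESeq2 the calls of Kcnip1, Kcnip4 and Kcnc1 were lost, and over all alternatives these calls were lost in 7 of 12, 4 of 12 and 2 of 12 settings. Those of Kcnab3, Kcnk2, Kcnab1 and Kcnn2 were lost in 1 or 2 settings, each without 1 library, and those of Kcnc2 and Kcns3 in 0. The share of excitatory neurons in the layer 2/3 gate was 36.6% in MC DTA and 29.6% in MC CTRL, against 12.5 to 22.3% in the PFC libraries. In the same order, the layer 4/5 IT share was 9.35% and 5.33%, against 0.79 to 3.94%. The layer 5 NP share was 1.29% and 2.02%, against 4.11 to 8.47%. The part of these shares in the differences was not tested.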

How the results depend on the processing

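The count of calls over all classes or subtypes stayed within 1.5 times its main value under every alternative run, apart from these. Without the filter on low counts the interneuron subtypes had 102 calls, against 67, and the genotype by neuron class test had 1 (Kcnh7), against 0. DESeq2 gave 6 calls for the area by neuron class test, against 10. Leaving out 1 library at a time gave 197 to 222 calls by class (211 in all libraries), 66 to 73 by interneuron subtype (67), 46 to 53 by excitatory subtype (53) and 47 to 53 between neuron classes (48). It gave 0 to 3 for the PFC genotype (0), 0 to 1 for genotype by neuron class (0), 4 to 65 for area (50) and 4 to 11 for area by neuron class (10). The lowest area counts were those without an MC library, 10 without MC CTRL and 4 without MC DTA. Of 111 named values, 70 kept their call throughout. Under alternatives, 1248 of 1372 values kept call and direction, 122 lost the call, 2 gained it (Kcnf1 by area in inhibitory neurons) and none changed sign. With the replicate number as a block, the PFC genotype had 0 calls as well. The labels do not say that the 2 shared numbers pair the libraries, and deviations of equal numbers correlated at -0.083 to 0.31 over 4 classes, above 0 in 6 of 8. Precision was low in small gates, and 0 of 4 genes in pericytes had a genotype interval within 2-fold (9.89% of all genes).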
